A study of Homo sapiens with 31 samples.

Results

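Transcripts of the machinery that degrades mRNA were followed in PANC-1, an established human pancreatic ductal cancer cell line, with and without the RNA-binding protein KHSRP. The set was chosen by name and comprises 49 genes: subunits of the CCR4-NOT complex, the other deadenylases, the TOB and BTG adaptors, decapping factors, 5′-to-3′ exonucleases, the DDX6, PATL1 and LSM group, the RNA exosome with its nucleases, and the core of nonsense-mediated decay. All 49 were found in both sets of tables and all 49 passed the filter on low counts, among 17240 genes tested in the steady state and 17715 tested under actinomycin D. Of the 31 samples of the series, 6 are steady-state libraries, 3 of KHSRP knockout cells (KO) and 3 of control cells labelled NC with the genotype WT. A further 20 are libraries of polyA RNA under actinomycin D, an inhibitor of transcription, with 2 libraries for each genotype label at 0, 2, 4, 6 and 8 h. The 3 miCLIP and 2 PAR-CLIP samples were not analysed here. The study asked how KHSRP affects gene expression and mRNA lifetime; the labels do not say whether the knockout is a single clone. They also do not give the origin of replicates, so each p-value here reflects variation among libraries that could be purely technical. In such bulk samples fewer cells of a type and less RNA per cell cannot be told apart.

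Decay of most mRNAs begins with shortening of the poly(A) tail by PAN2-PAN3 and then by CCR4-NOT. The LSM1-7 ring and PATL1 then bind the shortened tail, DDX6 and the EDC proteins help DCP2 remove the cap, and XRN1 degrades the body from the 5′ end, while the exosome degrades RNA from the 3′ end. KHSRP is known to bind AU-rich transcripts and to recruit deadenylation and exosome factors to them, so part of this set encodes factors of the kinds it recruits.

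Steady-state libraries held between 33706181 and 43278138 counts, and those under actinomycin D between 19177934 and 25768060. KHSRP stood at 9.68 to 11.0 plain CPM in KO and 62.5 to 63.6 in NC in the steady state, and under actinomycin D it stood at 134 to 164 with the KO label and at 406 to 434 with the NC label. All 6 ductal epithelial markers exceeded 1 CPM in every steady-state library and in every actinomycin D library labelled KO, but only 3 of the 6 did so in every library labelled NC. CDKN2A, a gene known to be deleted in PANC-1, had 2728 to 5476 counts in each actinomycin D library labelled NC, 0 counts in each one labelled KO, 0 in the steady-state NC libraries and 6 in each steady-state KO library. Of the 4 immune markers, which summed to 131 to 225 CPM in the actinomycin D libraries labelled KO and to 9.90 to 14.6 in those labelled NC, CD68 made up nearly all of the sum (129 to 223 and 9.81 to 13.8 CPM), PTPRC was at 0 in every library labelled KO, and CD3E was at most 0.295; their part in the results was not tested. The NC labels of the actinomycin D set therefore go against this marker, and differences between the labels of that set cannot be told apart from differences between cells; "the libraries labelled KO" and "the libraries labelled NC" are used for it throughout.

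In the steady state the decay machinery did not move as a block. Of the 49 members, 14 were higher in KO, where 24.4% of all genes were higher, and 18 were lower, where 26.3% of all genes were lower (50.6% in either direction); 17 did not pass the threshold of 0.05 on the adjusted p. The members' median log2 change was -0.02 and that of all genes 0.02. The 3 KO and 3 NC libraries did not overlap for 35 members, against 60% of all genes. The 18 that fell included the scaffold CNOT1, the nucleases CNOT6, CNOT6L and CNOT7, XRN1, DDX6 and DIS3, and the 14 that rose included decapping enhancers, LSM subunits, exosome subunits, 3 of the 4 TOB and BTG adaptors and UPF1. Leaving out NC replicate 3 lowered the number that rose from 14 to 9.

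**Figure D1:**
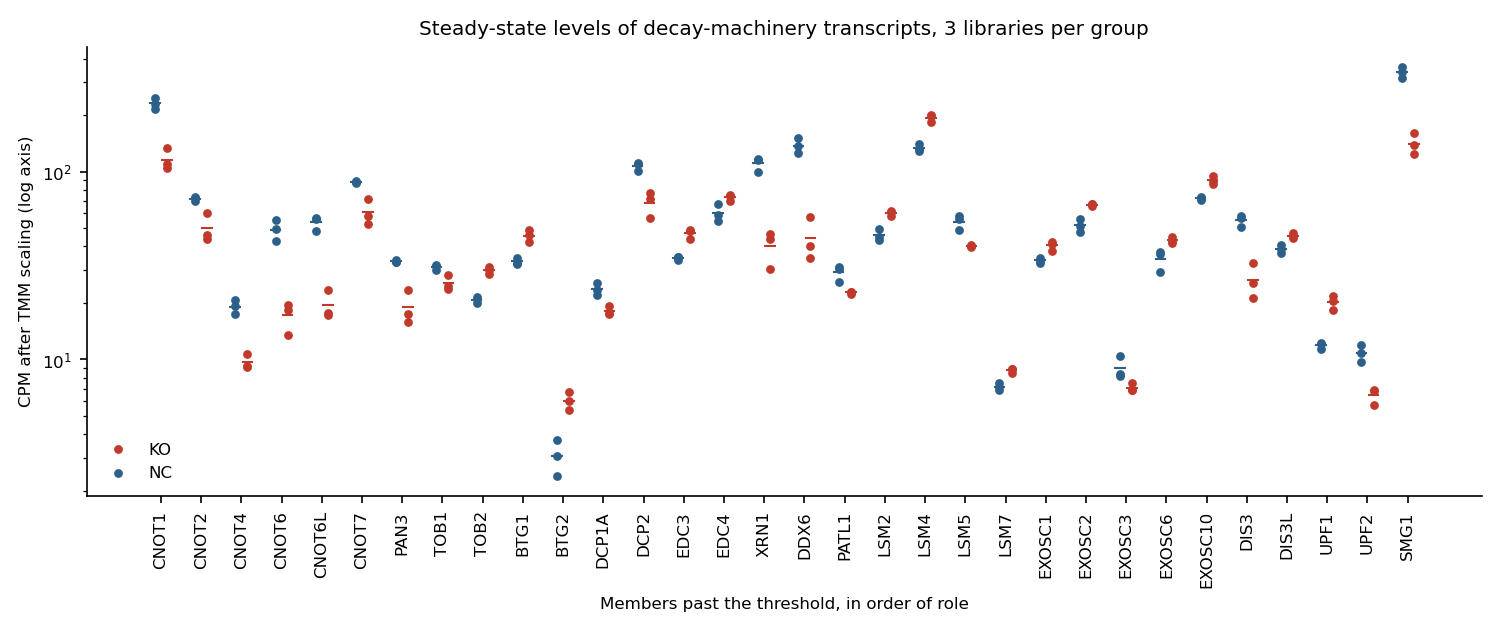
Steady-state level of each of the 32 members that passed the threshold, in CPM after TMM scaling on a log axis, with 1 point per library, KO in red and NC in blue, and a bar at each mean. The KO points of DDX6, CNOT6, CNOT6L, XRN1 and SMG1 lie far below their NC points, while those of BTG2, UPF1, TOB2, BTG1 and LSM4 lie above.

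DDX6, the RNA helicase that couples CCR4-NOT to decapping (hg19 chromosome 11, 118618472 to 118661873, minus strand), showed the largest fall of the set. Its levels were 57.6, 40.0 and 34.8 CPM in KO and 136, 126 and 151 in NC. All 3 KO libraries lay below all 3 NC libraries, and the means of 44.1 ± 11.9 and 138 ± 12.4 CPM (SD, n = 3 each) gave a log2 change of -1.64 (SE 0.17, adjusted p = 7.44e-05). PATL1, the scaffold that joins the LSM ring to DDX6 and the decapping enzyme, fell by 0.35 on the log2 scale.

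Of the 10 CCR4-NOT subunits among the members, 6 were lower and none was higher, where 26.3% of all genes were lower and 24.4% higher. CNOT9, a further subunit counted here among the cofactors, did not pass (-0.45, adjusted p = 0.0793). CNOT1, the scaffold that holds the complex together (chromosome 16, 58553855 to 58663730, minus strand), was at 134, 109 and 105 CPM in KO and at 230, 216 and 247 in NC. The groups did not overlap, and the log2 change was -0.99 (SE 0.10, adjusted p = 8.27e-05). CNOT4, a ubiquitin ligase that associates with the complex, fell by 0.98 and CNOT2, of the NOT module, by 0.52. CNOT3, CNOT10 and CNOT11 did not pass, with log2 changes of 0.14, -0.02 and 0.16.

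Of the 4 catalytic subunits of CCR4-NOT, 3 were lower in KO, where 26.3% of all genes were lower. CNOT6, a nuclease of the CCR4 class (chromosome 5, 179921379 to 180005358, plus strand), was at 19.6, 18.4 and 13.5 CPM in KO against 49.6, 42.7 and 55.1 in NC. Its paralog CNOT6L (chromosome 4, 78634541 to 78741423, minus strand) was at 23.5, 17.3 and 17.7 CPM against 56.2, 48.3 and 56.9. Neither pair of groups overlapped, and the log2 changes of these paralogs were -1.52 (SE 0.14, adjusted p = 5.73e-05) and -1.47 (SE 0.13, adjusted p = 3.91e-05). CNOT7, a nuclease of the CAF1 class, was at 71.3, 52.9 and 58.4 CPM in KO and at 89.2, 86.7 and 87.9 in NC, a log2 change of -0.53 (SE 0.11, adjusted p = 0.00273). Its paralog CNOT8 did not pass, with a log2 change of -0.07 (adjusted p = 0.489). Pseudogene copies related to CNOT6L and CNOT7 exist, and reads shared with them make these values less certain.

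Among the other deadenylases, PAN3, the adaptor that brings the nuclease PAN2 to poly(A)-binding protein, fell by 0.81 on the log2 scale, from 33.0, 33.0 and 34.0 CPM in NC to 23.6, 15.9 and 17.5 in KO. PAN2 itself and PARN, a deadenylase that also trims noncoding RNAs, did not pass, with log2 changes of -0.01 and 0.10.

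The adaptors that recruit CCR4-NOT and restrain proliferation mostly rose. BTG2 was at 5.39, 5.98 and 6.68 CPM in KO and at 3.71, 3.08 and 2.40 in NC, so the groups did not overlap, and the log2 change of 0.98 (SE 0.17, adjusted p = 0.00105) was the largest rise of the set. TOB2 rose by 0.52 and BTG1 by 0.45, while TOB1 fell by 0.29 (adjusted p = 0.021). This split ran within the family: both BTG genes and TOB2 went up, and TOB1 went down.

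The decapping group split as well. DCP2, the enzyme that cuts the cap (chromosome 5, 112312495 to 112357892, plus strand), was at 76.5, 56.4 and 71.7 CPM in KO and at 110, 101 and 111 in NC, a log2 change of -0.65 (SE 0.11, adjusted p = 0.00117) with no overlap. Its activator DCP1A fell by 0.38, and DCP1B did not pass at 0.21 (adjusted p = 0.162). The enhancers EDC3 and EDC4, the latter a large scaffold for the decapping complex, rose by 0.44 and 0.28.

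XRN1, the cytoplasmic 5′-to-3′ exonuclease (chromosome 3, 142025452 to 142166879, minus strand), was at 46.3, 30.2 and 43.8 CPM in KO and at 116, 99.9 and 116 in NC. Its groups were widely separated, with a log2 change of -1.46 (SE 0.15, adjusted p = 7.48e-05). XRN2, the nuclear enzyme that also acts in transcription termination, did not pass (-0.14, adjusted p = 0.285).

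The LSM ring moved little and in both directions. LSM4 (chromosome 19, 18417046 to 18433886, minus strand) was at 184, 199 and 200 CPM in KO and at 129, 140 and 132 in NC, without overlap, and rose by 0.54 (SE 0.07, adjusted p = 0.000351). LSM2 and LSM7 rose by 0.39 and 0.29, and LSM5 fell by 0.43. LSM1, the subunit that sets the cytoplasmic ring apart from the nuclear one, did not pass: it was at 21.7, 18.3 and 18.4 CPM in KO and at 18.4, 19.1 and 18.8 in NC (log2 change 0.05, adjusted p = 0.668). LSM3 and LSM6 did not pass either.

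Of the 9 subunits of the exosome core and cap, 3 rose, 1 fell and 5 did not pass, where 24.4% of all genes rose and 26.3% fell. The cap subunits EXOSC2 and EXOSC1 rose by 0.36 and 0.26 and the ring subunit EXOSC6 by 0.33, while the cap subunit EXOSC3 fell by 0.34 (adjusted p = 0.0389). The calls of EXOSC3 and EXOSC6 are fragile: EXOSC3 did not pass when any library other than NC replicate 2 was left out (adjusted p between 0.059 and 0.172), and EXOSC6 did not pass without NC replicate 3 (adjusted p = 0.0816). The nucleases that work with the core differed more. DIS3, the main catalytic subunit of the nuclear exosome (chromosome 13, 73326307 to 73356038, minus strand), was at 32.6, 21.2 and 25.4 CPM in KO and at 57.9, 50.6 and 57.0 in NC, a fall of 1.06 on the log2 scale (SE 0.14, adjusted p = 0.00027) without overlap. EXOSC10, the nuclear nuclease of the RNase D family, went the other way, from 73.4, 70.6 and 72.0 CPM in NC to 94.5, 86.2 and 88.9 in KO (log2 change 0.32, SE 0.07, adjusted p = 0.0057). The cytoplasmic paralog DIS3L rose by 0.23 (adjusted p = 0.0289). That call was lost without KO replicate 2 (0.0722), KO replicate 3 (0.0585), NC replicate 1 (0.137) or NC replicate 3 (0.0861). It was also lost with the replicate number as a block (0.0518) and without the filter on low counts (0.0855). DIS3L2, which degrades uridylated RNA without the exosome, did not pass (-0.02).

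In nonsense-mediated decay the helicase UPF1 rose, while SMG1 and UPF2 fell. UPF1 (chromosome 19, 18942768 to 18979039, plus strand) was at 18.4, 20.6 and 21.9 CPM in KO and at 12.3, 11.3 and 12.1 in NC, a log2 change of 0.77 (SE 0.10, adjusted p = 0.00019). SMG1, the kinase that phosphorylates UPF1 (chromosome 16, 18816182 to 18937730, minus strand), was at 161, 124 and 138 CPM in KO and at 337, 316 and 359 in NC, a log2 change of -1.26 (SE 0.10, adjusted p = 3.17e-05). UPF2, the bridge between UPF1 and the exon junction complex, fell by 0.74. None of these groups overlapped. SMG1 has near-identical pseudogene copies, so its reads may be split among them and its values are less certain.

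A list of 48 further decay cofactors, which hold no member, had 9 higher, 22 lower and 17 not passed, with a median log2 change of -0.18, where 24.4% of all genes were higher and 26.3% lower. The largest rises were those of LSM14B (0.92), a P-body protein, and of SMG9 (0.90), SMG5 (0.47) and SMG6 (0.42), which act with SMG1 or on phosphorylated UPF1. SMG6 lost its call without NC replicate 2 (adjusted p = 0.0757) or NC replicate 3 (0.0716). The largest falls were those of ZFC3H1 (-1.35), which links polyadenylated nuclear RNA to the exosome, HELZ (-1.30), a helicase, TUT7 (-1.11), a terminal uridylyltransferase, and UPF3B (-1.10), an exon junction partner of UPF2.

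The changes were set against transcript length, taken as the mean length that RSEM reported for each gene. Long transcripts were lower in KO across the whole table: of the 4310 genes in the longest quartile, with lengths of at least 3312 bases, 46.8% fell and 17.4% rose, whereas in the shortest quartile 12.3% fell and 25.1% rose. Of the 49 members, 20 lay in the longest quartile, and 13 of these fell (65%) and 5 rose (25%). In the shortest quartile 2 of 12 fell and 4 rose. Spearman's rho of log2 change with log2 length was -0.42 over the 49 members and -0.24 over all genes, given as descriptions, since genes share the same libraries. Measured in each KO library against the NC mean, the members' rho was -0.43, -0.40 and -0.42.

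The 7 members with the largest falls were all long, with mean lengths from 3895 bases for CNOT1 to 9645 bases for SMG1. The 5 long members that rose were UPF1 (4091 bases), TOB2 (4404), BTG1 (3621), EXOSC6 (5153) and EDC4 (3404). Long members thus went both ways, within a general fall of long transcripts whose source was not tested. With offsets that level each library's trend on length, 17 members were lower (24.2% of all genes) and 12 higher (26% of all genes, 50.2% in either direction); the rho was -0.23 over the members and 0.025 over all genes. DDX6 then fell by 1.35, CNOT6 by 1.10, XRN1 by 1.06, CNOT6L by 0.93, CNOT1 by 0.76, DIS3 by 0.63 and SMG1 by 0.59, and UPF1 rose by 1.04. Under these offsets DCP1A (-0.02), PATL1 (-0.10), LSM7 (0.19) and EXOSC1 (0.15) lost their calls, and EXOSC9 gained one (-0.49).

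**Figure D2:**
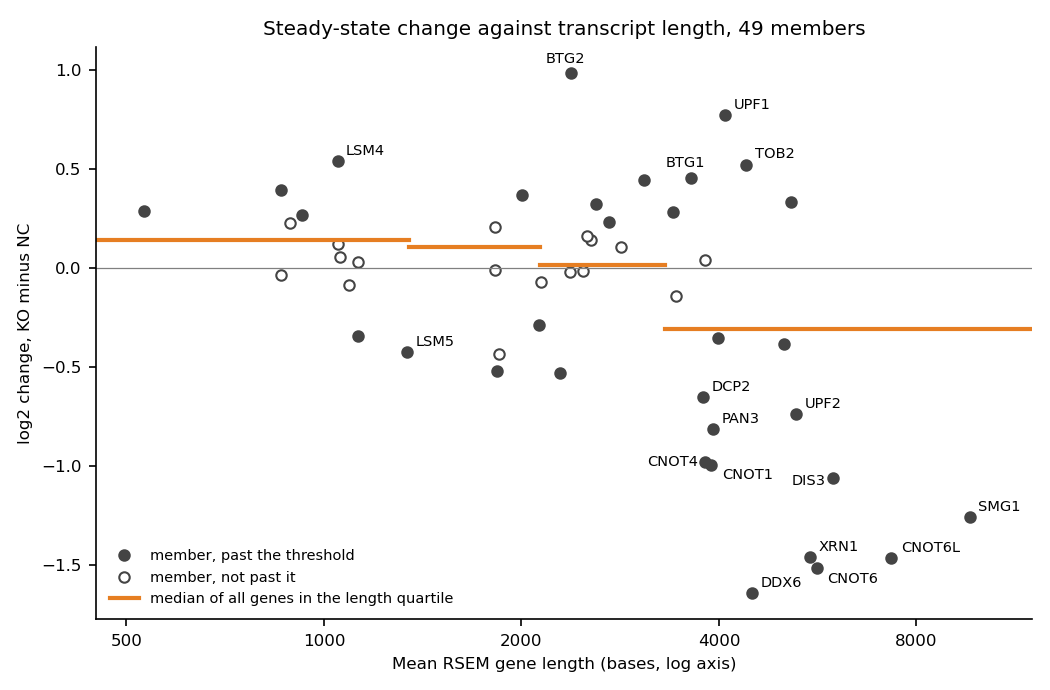
Log2 change between KO and NC in the steady state (vertical axis) against mean RSEM gene length in bases (horizontal, log axis) for the 49 members; filled points passed the threshold, and orange bars give the median of all genes in each length quartile. The largest falls, of DDX6, CNOT6, CNOT6L, XRN1 and SMG1, lie in the longest quartile, whose median over all genes was -0.31, while UPF1, TOB2 and BTG1 lie above 0 in the same quartile.

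The length that RSEM reports is an average over a gene's isoforms weighted by their estimated abundance, so it can itself differ between libraries. The following description was chosen after seeing the data and has no test. For 13 members the length in all 3 KO libraries was below that in all 3 NC libraries, and for 7 it was above; among all genes tested these shares were 13.8% and 5.73%. DCP2 stood out, with 2458, 2063 and 2713 bases in KO and 5096, 5325 and 5033 bases in NC. CNOT7 was at 1930, 1862 and 2006 bases against 2671, 2780 and 2491. SMG1 went from 10721, 11027 and 10906 bases in NC to 8461, 8071 and 8683 in KO. DDX6, CNOT6L, CNOT4, DIS3, CNOT2 and CNOT6, which fell in counts, also had shorter lengths in every KO library, by 0.12 to 0.20 on the log2 scale. UPF1 moved to longer estimates, from 3373, 3844 and 3737 bases to 4369, 4773 and 4448.

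**Figure D3:**
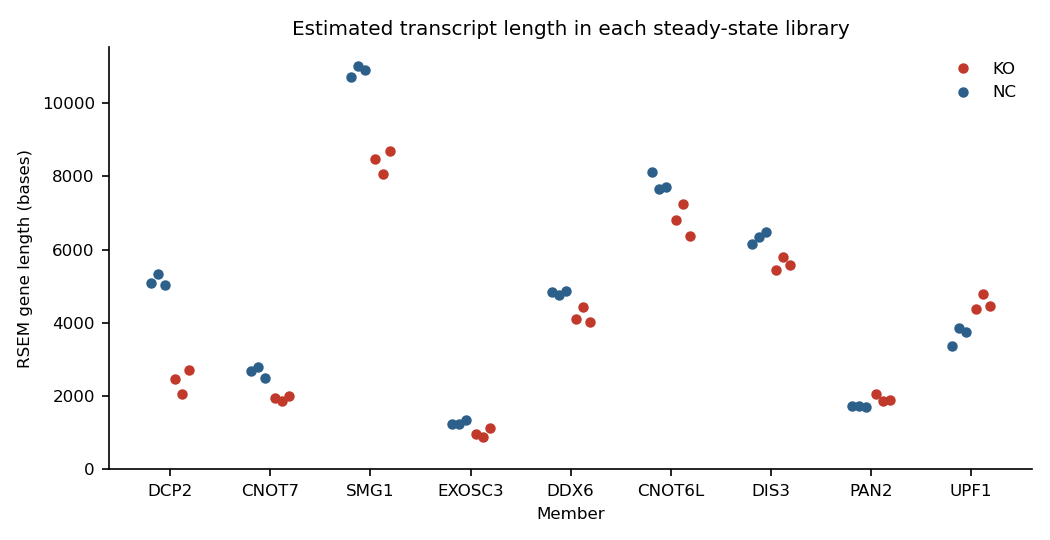
RSEM gene length in bases (vertical axis, from 0) in each steady-state library for 9 members, KO in red and NC in blue, 1 point per library. The KO lengths of DCP2 lie between 2063 and 2713 bases and its NC lengths between 5033 and 5325, and UPF1 is longer in KO.

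Because TPM divides by this length, counts and TPM disagreed for some members. DCP2, lower in counts, was at 14.9, 11.3 and 11.4 TPM in KO and at 7.35, 6.80 and 7.78 in NC, a log2 difference of 0.73 on the log2(TPM + 0.5) scale (limma, adjusted p = 0.00262). CNOT7 and EXOSC3 also changed sign on that scale, at 0.20 and 0.32, and neither passed. CNOT2 (-0.15, adjusted p = 0.489), DCP1A (-0.08, 0.668), LSM5 (-0.11, 0.448), UPF2 (-0.27, 0.0682), DIS3L (0.35, 0.106) and the cofactor SMG6 (0.35, 0.074) kept their sign on that scale and lost their calls. On the TPM scale 16 members were higher and 9 lower, and the median of all genes shifted to 0.16. The shares of all genes called on that scale are not given here. Whether KO cells hold more or fewer DCP2 mRNAs thus depends on the isoform lengths assigned, and isoform values were not analysed here. Per length, the members most abundant in NC were LSM4 at 55.1 TPM, XRN2 at 28.3, LSM2 at 24.7 and CNOT1 at 22.2, and the least abundant were UPF2 at 0.72 and BTG2 at 0.46.

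At 0 h of actinomycin D the libraries labelled KO and those labelled NC were compared in the same way. Of the 49 members, 11 were higher in the KO label, where 35.5% of all genes were higher, and 26 lower, where 31.6% were lower (67.1% in either direction). The members' median log2 difference was -0.29 and that of all genes 0.06. The 2 libraries of each label did not overlap for 40 members, against 82% of all genes. These counts depend on the scale: scaled to ribosomal protein genes, which moved the median of all genes to 0.50, 21 members were higher and 12 lower, and on the deposited molecule scale, which moved it to 0.89, 30 were higher and 6 lower. The shares of all genes called on these other scales are not given here. Differences below are relative to the bulk of transcripts.

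The members higher in the KO label included the nuclease CNOT6, at 92.3 and 96.0 CPM against 38.4 and 37.5 (log2 difference 1.31, SE 0.08), and SMG1, at 505 and 487 against 226 and 224 (1.14, SE 0.05). DCP2 was at 81.9 and 85.9 CPM against 39.3 and 40.2 (1.08), and DDX6 at 150 and 152 against 83.9 in both libraries (0.85). All 4 were lower in KO in the steady state. PAN2 (0.89), XRN2 (0.80), EXOSC10 (0.77), UPF2 (0.74) and PARN (0.40) were also higher in the KO label.

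The members lower in the KO label were led by the adaptors. BTG2 had 6 and 4 counts in the KO label and 62 and 30 in the NC label (log2 difference -3.03, SE 0.65), so its level rests on few reads. TOB1 was at 4.91 and 7.14 CPM against 23.0 in both NC-labelled libraries (-1.94, SE 0.15), and BTG1 at 3.29 and 4.56 against 9.37 and 7.70 (-1.13, SE 0.19). The adaptors were the role group with the lowest median difference, -1.53. EXOSC5 (-1.57), CNOT7 (-1.34), LSM1 (-1.27), EXOSC2 (-1.08), LSM4 (-1.04), UPF1 (-0.92), CNOT10 (-0.85), EDC3 (-0.79), EXOSC4 (-0.75) and CNOT4 (-0.74) were lower too. On the molecule scale BTG1 (-0.44, adjusted p = 0.144), LSM4 (-0.19, 0.162), UPF1 (-0.09, 0.317), CNOT10 (-0.05, 0.749) and CNOT4 (-0.01, 0.987) lost their calls. CNOT1 (-0.58), EDC4 (-0.57), DIS3 (-0.61), DIS3L2 (-0.46), XRN1 (-0.43) and CNOT8 (-0.34) were lower by less, and each of these 6 was above 0 on the molecule scale, as were EDC3 and EXOSC4, and XRN1 and CNOT8 were above 0 under ribosomal scaling too (0.02 and 0.10). Under ribosomal scaling CNOT4 (-0.29, adjusted p = 0.208), EXOSC4 (-0.30, 0.173), EDC4 (-0.13, 0.132), DIS3 (-0.16, 0.0713) and DIS3L2 (-0.01, 0.96) kept their sign and lost their calls. CNOT8 lost its call without KO label 0 h replicate 1 (adjusted p = 0.356) or NC label 0 h replicate 1 (0.129), and DIS3L2 without KO label 0 h replicate 2 (0.243) or NC label 0 h replicate 2 (0.0556). Of the 48 cofactors, 16 were higher and 21 lower, where 35.5% of all genes were higher and 31.6% lower. The rises were led by ZFP36 (2.85), which encodes an AU-rich element binding protein, ZCCHC7 (1.73), a nuclear exosome cofactor, PNRC2 (1.71), a decapping coactivator, and NOCT (1.65). The falls were led by DCPS (-1.83), the scavenger decapping enzyme, ZFP36L1 (-1.26), LSM8 (-1.19), of the nuclear LSM ring, and TENT4A (-1.17), a poly(A) polymerase. LSM8 lost its call on the molecule scale (-0.49, adjusted p = 0.141).

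Set beside the steady state, 16 members were called in opposite directions in the 2 sets, which was the case for 22.8% of the 14298 genes tested in both, and 9 in the same direction (18.7% of those genes). A further 19 were called in 1 set and 5 in neither. CNOT6, SMG1, DDX6, DCP2, UPF2 and EXOSC3 were lower in the steady-state KO and higher in the KO label at 0 h. BTG1, BTG2, EDC3, EDC4, LSM4, LSM7, EXOSC2, EXOSC6, DIS3L and UPF1 went the opposite way, of which LSM7, EXOSC6 and DIS3L were above 0 at 0 h under both other scalings and EDC3 and EDC4 on the molecule scale, where BTG1, LSM4 and UPF1 lost their calls. CNOT1, CNOT4, CNOT7, XRN1, DIS3, TOB1, PATL1 and LSM5 were lower in both sets and EXOSC10 was higher in both; XRN1, PATL1 and LSM5 were above 0 at 0 h under both other scalings, and CNOT1 and DIS3 on the molecule scale, where CNOT4 lost its call. EDC4, CNOT4 and DIS3 lost their 0 h calls under ribosomal scaling. The sets were counted into different tables, and a difference in counting, in cells or in culture cannot be told apart here.

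**Figure D4:**
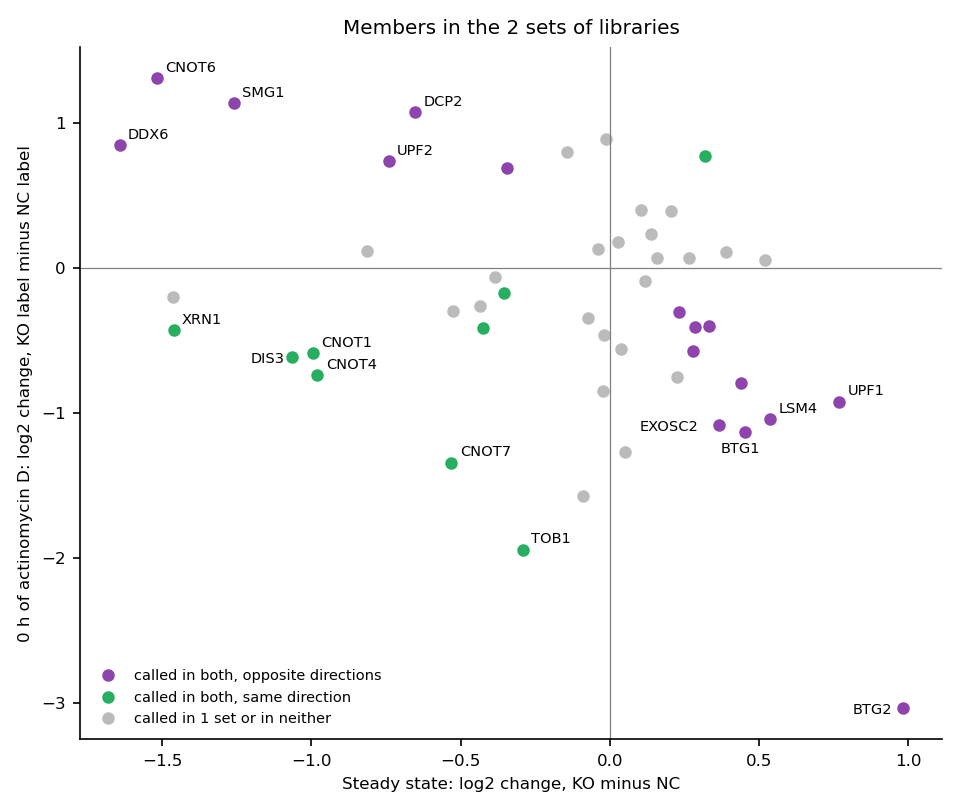
Log2 change between KO and NC in the steady state (horizontal) and log2 difference between the KO and NC labels at 0 h of actinomycin D (vertical) for the 49 members; purple points were called in opposite directions (16), green in the same direction (9) and grey in 1 set or neither. CNOT6, SMG1, DDX6 and DCP2 lie at the upper left, and UPF1, LSM4, BTG1 and BTG2 at the lower right.

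Over the labelled times, 34 members differed between times in the NC label, where 54.7% of all genes did, and 44 in the KO label, where 55.9% did. The differences did not follow labelled time: 25 members had their highest mean CPM at 4 h in the NC label (37% of all genes) and 18 at 6 h in the KO label (30.3% of all genes). Only 5 members were highest at 0 h in the NC label (14.8% of all genes) and 10 at 0 h in the KO label (14%). At NC 4 h, 23 members were higher than at 0 h and 10 lower, where 27.1% and 24.4% of all genes were (51.5% together). At KO 6 h, 17 were higher and 21 lower, where 19.7% and 28% were (47.7% together). Scaling to ribosomal protein genes moved the median of all genes to 0.62 at NC 4 h and 0.53 at KO 6 h, and falls at these points are relative to the bulk of transcripts. The shares of all genes called under that scaling are not given here. With it, 45 members were higher and 1 lower at NC 4 h, and 38 higher and 0 lower at KO 6 h. These comparisons use separate 0 h libraries, and 15 members were higher in both, which is 15 of the 23 and 15 of the 17 (16.5% of all genes). On the TMM scale alone, another 10 were lower in both, 10 of the 10 and 10 of the 21 (19.8% of all genes). CNOT11, EXOSC2 and SMG1 were higher at NC 4 h and lower at KO 6 h on that scale, though above 0 at KO 6 h under ribosomal scaling. Opposite calls at these points, in either order, were made for 1.21% of all genes.

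All 4 TOB and BTG adaptors were among the 15. Transcripts of this family are short-lived in many cells. TOB1 (chromosome 17, 48939584 to 48945339, minus strand) was at 23.0 and 23.0 CPM at NC 0 h, at 47.0 and 47.2 at 2 h, at 96.0 and 101 at 4 h, at 26.6 and 31.4 at 6 h and at 22.0 and 21.2 at 8 h. In the KO label it was at 4.91 and 7.14, then 5.16 and 5.24, 18.0 and 17.4, 35.6 and 33.2, and 5.85 and 4.39 CPM. Relative to the bulk of transcripts, both profiles rose to a single high point and returned to their start. On the deposited molecule scale the median of all genes itself was -1.18 at NC 8 h and -1.78 at KO 8 h. The log2 change was 2.10 at NC 4 h (SE 0.12, adjusted p = 1.2e-18) and 2.52 at KO 6 h (SE 0.14, adjusted p = 1.17e-18).

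BTG1 (chromosome 12, 92534054 to 92539622, minus strand) had the same course. It went from 9.37 and 7.70 CPM at NC 0 h to 50.6 and 64.0 at NC 4 h, a log2 change of 2.75 (SE 0.16), and did not pass at 6 h. In the KO label it went from 3.29 and 4.56 CPM at 0 h to 52.3 and 51.1 at 6 h, a log2 change of 3.73 (SE 0.18), and was at 6.44 and 5.61 at 8 h. The libraries at these high points lay above every other library of their label. TOB2 rose by 1.61 at NC 4 h and by 1.29 at KO 6 h. BTG2 rose by 1.49 at NC 4 h and by 2.95 at KO 6 h, on 122 and 147 counts and 64 and 40 counts. Its difference between times in the NC label (adjusted p = 0.0355) was lost without NC label 0 h replicate 2 (0.102), 4 h replicate 1 (0.125), 4 h replicate 2 (0.174) or 8 h replicate 2 (0.0568). With every library kept, that difference was also lost with DESeq2 size factors (0.065) and with the DESeq2 test (0.0882).

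**Figure D5:**
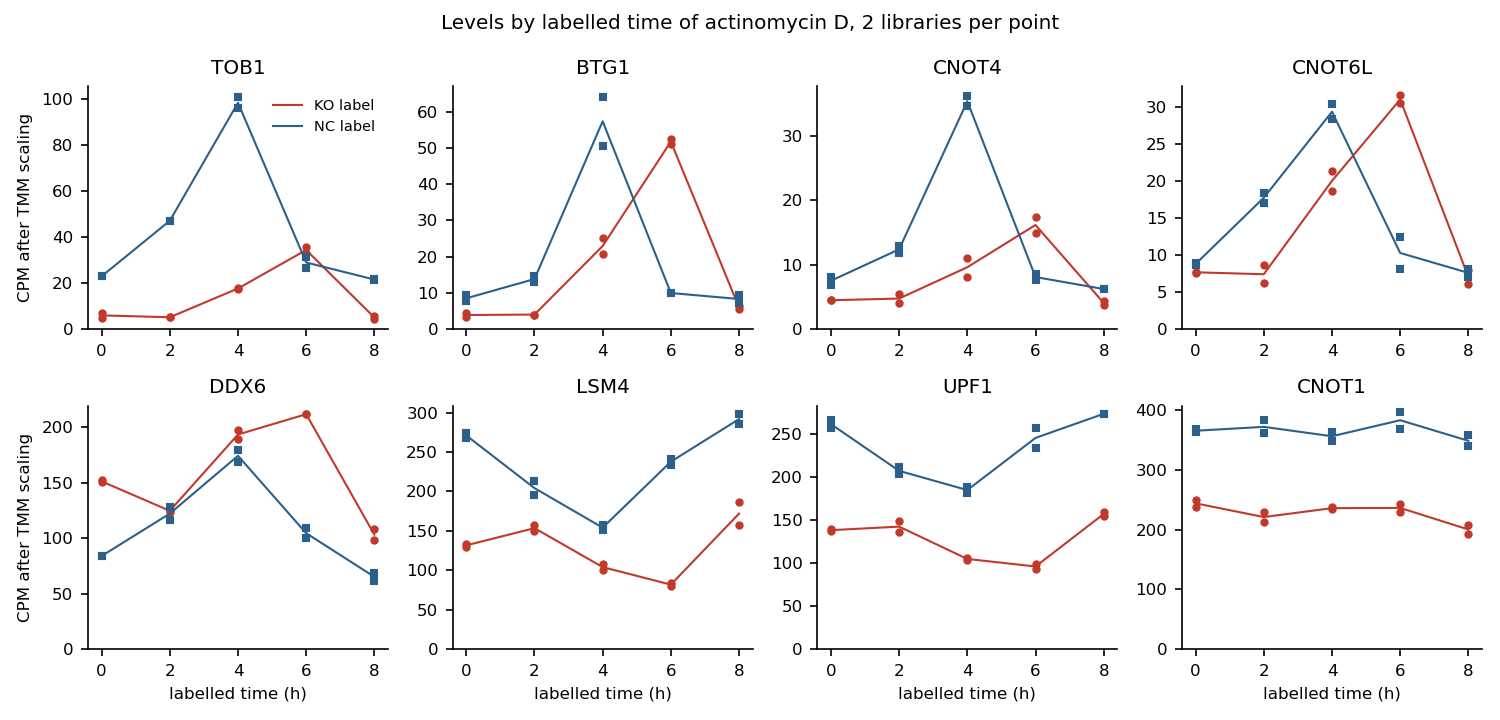
CPM after TMM scaling (vertical axes, from 0) against labelled hours of actinomycin D for 8 members, with 1 point per library, lines through the means, the KO label in red and the NC label in blue. TOB1, BTG1, CNOT4 and CNOT6L peak at NC 4 h and KO 6 h, DDX6 does so from unequal starting levels, LSM4 and UPF1 are lowest at those times on this scale (UPF1 is above its start under ribosomal scaling), and CNOT1 is nearly level.

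As a description, promoters of the TOB and BTG adaptors are shown for the 3 that have a single start in the RefSeq table (GRCh38.p14, where 43 of the 49 members have a window). Each line holds the 250 bases before the transcription start on the gene's strand, 5′ to 3′, and capitals mark the TATA box TATAAA, the CCAAT box CCAAT and the GC box GGGCGG on either strand. CCGCCC is the GC box and ATTGG the CCAAT box read from the opposite strand, and the motifs marked share no bases.
BTG1: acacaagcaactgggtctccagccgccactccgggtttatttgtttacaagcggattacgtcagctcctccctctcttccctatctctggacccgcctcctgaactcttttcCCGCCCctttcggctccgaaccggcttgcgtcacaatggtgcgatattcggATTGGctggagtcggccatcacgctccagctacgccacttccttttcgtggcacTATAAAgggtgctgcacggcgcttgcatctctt
BTG2: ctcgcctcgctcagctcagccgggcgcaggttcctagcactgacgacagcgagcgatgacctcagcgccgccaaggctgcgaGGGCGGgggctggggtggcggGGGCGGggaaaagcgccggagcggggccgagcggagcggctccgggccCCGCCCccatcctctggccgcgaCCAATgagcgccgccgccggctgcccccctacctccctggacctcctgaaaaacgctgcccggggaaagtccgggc
TOB2: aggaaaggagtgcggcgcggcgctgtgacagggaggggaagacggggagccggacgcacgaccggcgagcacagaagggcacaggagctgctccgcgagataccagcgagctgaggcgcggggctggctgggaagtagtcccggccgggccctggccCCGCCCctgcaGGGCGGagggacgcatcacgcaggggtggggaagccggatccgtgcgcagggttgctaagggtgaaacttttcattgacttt
They lie at chr12:92145847-92146096 (minus strand), chr1:203305269-203305518 (plus strand) and chr22:41446802-41447051 (minus strand). BTG1 holds all 3 motifs, BTG2 holds CCAAT and GGGCGG, and TOB2 holds GGGCGG. Of the 35116 windows in the table, 10.72% hold TATAAA, 32.01% CCAAT and 42.64% GGGCGG. Of the 58 windows of members, 2 hold TATAAA, 19 CCAAT and 46 GGGCGG. TOB1, with 2 listed starts, has a window with none of the motifs and another with CCAAT and GGGCGG. These matches describe letters in the windows and say nothing of which factors bind there.

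Several other deadenylation genes were also higher at these points. CNOT4 went from 6.86 and 8.17 CPM at NC 0 h to 36.1 and 34.6 at 4 h (log2 change 2.23) and, in the KO label, from 4.53 and 4.46 to 17.5 and 14.8 at 6 h (1.84). CNOT6L changed by 1.74 and 2.01, CNOT8 by 1.22 and 1.19, CNOT2 by 1.36 and 1.09 and PAN3 by 0.88 and 0.65 at these points. Their paralogs moved less: CNOT6 changed by 0.31 (adjusted p = 0.00189) and 0.03 (adjusted p = 0.804), and CNOT7 by 0.01 and -0.25, the latter 0.40 under ribosomal scaling. CNOT1 stayed between 339 and 397 CPM in all 10 libraries labelled NC and between 192 and 249 in those labelled KO, where its largest difference from 0 h was -0.29, at 8 h. CNOT11 changed by 0.38 and -0.27 (the latter 0.38 under ribosomal scaling), and CNOT10 passed over times in the KO label and not in the NC label, with its largest difference, -0.29, at KO 2 h. In the KO label CNOT8 was also far below its start at 8 h (-1.20).

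Of the decapping factors, DCP1A rose by 1.53 at NC 4 h and by 1.39 at KO 6 h, and DCP1B by 2.52 and 1.86, from 12 to 32 counts at 0 h to 98 to 137 at these points. DCP2, the enzyme itself, stayed within 38.8 to 46.6 CPM in the NC label and 73.9 to 91.7 in the KO label. On the TMM scale DCP2 passed in neither. Without the filter on low counts, the F test over times called it in the KO label (adjusted p = 0.0018). It passed in both labels under ribosomal scaling (0.83 at NC 4 h and 0.46 at KO 4 h) and on the molecule scale (0.55 and -0.30 there). EDC3 rose by 0.35 at KO 6 h (the change from 0 h to 6 h differed between labels by 0.31, adjusted p = 0.0496), and the molecule scale put it at -0.04. XRN1 passed in neither label on the TMM scale, but without the filter on low counts the same test called XRN1 in the KO label (adjusted p = 0.000636). It passed in both under ribosomal scaling (0.70 at NC 4 h and -0.41 at KO 8 h) and on the molecule scale (0.40 and -1.93 there). DDX6 went from 83.9 in both libraries to 169 and 180 CPM at NC 4 h (1.05, SE 0.06) and from 150 and 152 to 212 in both at KO 6 h (0.49, SE 0.06). DDX6 was below its start at KO 2 h (-0.28, adjusted p = 0.00178) and, by more, at KO 8 h (-0.55, adjusted p = 4.18e-09), as at NC 8 h (-0.36, adjusted p = 0.000579).

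Members that fell at the same points included small LSM subunits and UPF1. LSM4 went from 275 and 267 CPM at NC 0 h to 157 and 151 at 4 h (-0.82, SE 0.06) and from 130 and 133 to 80.1 and 83.4 at KO 6 h (-0.69, SE 0.06). LSM7 changed by -0.55 and -0.66, and LSM6, at 6.17 to 13.8 CPM in all libraries, differed between times with its largest difference, 0.67, at KO 8 h. UPF1 went from 266 and 257 to 188 and 181 CPM at NC 4 h (-0.50) and from 139 and 137 to 92.6 and 99.2 at KO 6 h (-0.53). LSM4 stayed below 0 under scaling to ribosomal protein genes (-0.19 and -0.04), whereas LSM7 at NC 4 h and UPF1 in both labels went above 0 (0.08, 0.13 and 0.12). PAN2 (-0.49 and -0.55), PARN (-0.40 and -0.48) and XRN2 (-0.33 and -0.39) fell as well, and all 3 were above 0 in both labels under that scaling.

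The exosome was divided. EXOSC9 rose by 0.92 at NC 4 h and by 0.62 at KO 6 h, EXOSC6 by 1.13 and 0.52 and EXOSC4 by 0.83 and 0.55. EXOSC5, a ring subunit beside them, fell by 0.62 and 0.49, values that ribosomal scaling put at 0.01 and 0.16. In the KO label EXOSC5 moved more at other times, from 15.6 and 16.8 CPM at 0 h to 27.3 and 26.0 at 2 h (0.72) and to 26.9 and 23.6 at 8 h (0.64), values that the molecule scale put at 0.02 and -1.20. EXOSC9 and EXOSC4 were below their start at KO 8 h (-0.74 and -0.73). EXOSC3 rose at NC 4 h (0.91) but had -0.14 at KO 6 h, and its change from 0 h to 4 h differed between labels by -1.07 (adjusted p = 1.01e-05). The nucleases moved less: EXOSC10 was at -0.27 at NC 8 h and -0.40 at KO 8 h, its largest differences, DIS3 passed in the NC label, with -0.20 at 8 h, and DIS3L was at -0.35 (0.30 under ribosomal scaling) and DIS3L2 at 0.45 at KO 6 h. Several of these calls rest on single libraries: EXOSC10 in the NC label was lost without NC label 8 h replicate 2 (adjusted p = 0.127), DIS3 without NC label 4 h replicate 1 (0.0702) or 8 h replicate 2 (0.209), DIS3L2 in the KO label without KO label 0 h replicate 2 (0.0633), 4 h replicate 2 (0.116) or either 6 h library (0.121 and 0.236), and CNOT7 in the KO label without either 6 h library (0.0535 and 0.116). SMG1 and UPF2 rose a little at NC 4 h (0.21 and 0.33), and their largest differences in the KO label were -0.18 and -0.24 at 4 h, or 0.17 and 0.11 under ribosomal scaling. The SMG1 call in the KO label was lost without KO label 0 h replicate 1 (0.0583). With every library kept, the DIS3 call in the NC label was lost with DESeq2 size factors (adjusted p = 0.18) and with the DESeq2 test (0.217). Without the filter on low counts, the calls of DIS3 (0.315) and EXOSC10 (0.057) in the NC label and of CNOT7 in the KO label (0.171) were lost. LSM1 passed over times in the KO label, with -0.44 at 6 h, or 0.21 under ribosomal scaling.

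Cofactors moved in both directions at these points. Of the 48, 26 were higher and 13 lower at NC 4 h, where 27.1% and 24.4% of all genes were. At KO 6 h, 22 were higher and 16 lower, where 19.7% and 28% of all genes were. PELO, a ribosome rescue factor, changed by 2.86 and 2.68, PNRC1, a nuclear receptor coactivator that binds the decapping complex, by 2.72 and 2.78, ZFP36L2, an AU-rich element binding protein, by 2.70 and 2.25 and the deadenylase NOCT by 2.47 and 2.15. ZFP36, a paralog of ZFP36L2, changed by 0.54 and 2.84. The poly(A)-binding proteins PABPC4 (-0.68 and -0.64) and PABPC1 (-0.54 and -0.62), the decapping-linked microprotein gene NBDY (-0.64 and -0.79), HBS1L (-0.51 and -0.50), the partner of PELO, UPF3B (-0.28 and -0.82) and SMG5 (-0.28 and -0.66) were lower, of which PABPC1 and HBS1L in both labels, PABPC4 in the KO label and UPF3B and SMG5 in the NC label were above 0 under ribosomal scaling, and TUT4 had its largest difference in the KO label at 8 h (-0.64).

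At the other times fewer members differed from 0 h. In the NC label 17 were higher and 8 lower at 2 h (16.9% and 14.9% of all genes, 31.8% together), 3 higher and 2 lower at 6 h (3.12% and 1.3%, 4.42% together) and 0 higher and 3 lower at 8 h (1.61% and 1.59%, 3.21% together). Ribosomal scaling changed these counts to 34 and 0 at 2 h, 9 and 0 at 6 h, and 0 and 14 at 8 h. At NC 8 h DESeq2 called 5 members lower. In the KO label 3 were higher and 6 lower at 2 h (4.87% and 4.29%, 9.16% together), 11 and 8 at 4 h (12% and 15.7%, 27.7% together), and 8 and 13 at 8 h (11.3% and 10.7%, 22.1% together). Ribosomal scaling changed these to 1 and 14 at 2 h, 27 and 0 at 4 h, and 2 and 29 at 8 h. Leaving out NC label 0 h replicate 1 or 2 lowered the 8 at NC 2 h to 5, and left 1 higher and 0 lower at NC 6 h; without NC label 6 h replicate 1 or 2 there were 0 or 1 higher and 0 lower there. Leaving out any KO-labelled library from 0 to 6 h except 4 h replicate 2 left 1 lower at NC 6 h. The 3 lower at NC 8 h became 1 without either NC label 0 h library, 5 without 8 h replicate 1 and 0 without 8 h replicate 2. Without KO label 0 h replicate 1 the KO label had 1 higher and 3 lower at 2 h, 5 lower at 4 h, and 5 higher and 8 lower at 8 h; without 2 h replicate 2 it had 1 and 1 at 2 h, and without 0 h replicate 2 or 8 h replicate 1 it had 5 higher at 8 h. On the deposited molecule scale, whose all-gene medians at 8 h were -1.18 in the NC label and -1.78 in the KO label, 47 and 48 members were lower at 8 h, while 33 were higher at NC 4 h and 11 higher and 30 lower at KO 6 h. On that scale 38 members had their highest mean at NC 4 h, 16 at KO 6 h and 32 at KO 0 h. The shares of all genes highest at these times are not given here, and the all-gene medians were 0.35 at NC 4 h and -0.55 at KO 6 h. The shares of all genes called under ribosomal scaling or on the molecule scale are not given here.

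The design implies a comparison of the change per hour between labels. With edgeR, 0 members and 0 of 17715 genes differed in slope (0% called), with 1 member (EXOSC8, named after its value was seen) and 529 genes at an unadjusted p under 0.05, and DESeq2 called 0 members and 6 genes. A slope is a poor summary of profiles with a single high point. An F test over the 4 differences in change from 0 h, added after the data were seen, found that 41 members differed between labels, where 55.3% of all genes did. The change from 0 h to 6 h differed most for BTG1, by 3.50 (adjusted p = 9.8e-15), for BTG2, by 2.34 (adjusted p = 0.023), and for TOB1, by 2.19 (adjusted p = 2.3e-12), all higher in the KO label. The 8 that did not pass were CNOT3, DCP2, XRN1, PATL1, EXOSC8, EXOSC10, DIS3 and DIS3L2. Of these, CNOT3, DCP2 and XRN1 were also the 3 members that differed between times in neither label on the TMM scale with the filter kept.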

How the data were processed

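RNA-seq of PANC-1 cells was analysed from the tables the authors deposited. TRIzol extraction was followed by library construction (Hieff NGS Ultima Dual-mode kit for mRNA), per the labels' protocols. The submitters' processing notes list STAR, RSEM, Bowtie2, deepTools and hg19 but give neither versions nor roles. For annotation and strand use in counting, nothing is stated in these sources. Per the file headers, the steady-state tables hold the authors' RSEM expected counts, TPM, FPKM and gene lengths, and the actinomycin D tables hold the authors' read counts, RPM, RPKM, log2 RPKM, a molecule-number signal and log2 molecule values; these last lay on an exact straight line against log2 RPKM within each library. Expected counts were rounded (10.2% were not whole), and 45 pseudoautosomal copies were added to their partners. Symbols were brought up to date from reference tables (408 of 43682 names changed).

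The tests were run in R 4.3.3 with edgeR 4.0.16 (filterByExpr, TMM, robust quasi-likelihood F test, Benjamini-Hochberg adjustment over all genes tested, threshold 0.05). The steady-state fit used 6 libraries; the actinomycin D fit used 20, with a mean per label and time. A slope fit used label, hours and their interaction. Standard errors (SE) were derived from each log2 change and its F statistic, and levels are CPM after TMM scaling unless called plain. Alternatives used DESeq2 1.42.0, limma 3.58.1 on log2(TPM + 0.5) and on log2 molecule values, scaling to 78 ribosomal protein genes, and offsets that follow a lowess curve on length (span 0.3). The tests were tried on simulated data. Intervals are not given for single libraries, since replicates give the spread.

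Libraries of a group differed by more than sampling noise (chi-square per degree of freedom at least 3.81), and all were kept. Same-numbered libraries deviated together at correlations of -0.34 to 0.26 in the steady state and -0.09 to 0.09 under actinomycin D, so numbers were not treated as pairs. The members and lists were chosen with earlier results of these data known. By rule, each comparison names 11 members whatever their result, up to 3 per role group with the largest changes past the threshold, and up to 4 cofactors in each direction.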

Additional observations from a re-analysis of the deposited data

Results flagged for a closer look

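The 2 sets of libraries disagreed on the direction of many members between KO and NC. In 16 members the steady-state change and the difference at 0 h were both past the threshold in opposite directions, as in 22.8% of all genes tested in both sets. For these 16 the libraries also did not overlap in either set, a condition that the 22.8% leaves out. Of all genes tested in each set, 60% did not overlap in the steady state and 82% at 0 h. The share of genes that meet all these conditions together is not given here. LSM7, EXOSC6 and DIS3L were above 0 at 0 h under both other scalings, and EDC3 and EDC4 on the molecule scale. BTG1, LSM4 and UPF1 lost their 0 h calls on the molecule scale, and EDC4 under ribosomal scaling. In CNOT6 every library moved, with -1.52 in the steady state and 1.31 at 0 h on the log2 scale, and in SMG1 with -1.26 and 1.14. The difference between the sets was not tested, because they were counted into separate tables. CDKN2A counts separate the NC-labelled actinomycin D libraries from the other libraries, and their part in these opposite values was not tested. The change from 0 h differed between the 2 labels for 41 members in an F test added after the data were seen, where 55.3% of all genes did.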

How the results depend on the processing

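Depth did not limit most members; BTG2 and DCP1B rest on few counts under actinomycin D. The replicate block moved no count of members by over 1.5 times (steady state, 12 higher and 19 lower) and changed no named call other than that of DIS3L. On log2(TPM + 0.5) 9 members were lower in the steady state, and CNOT7 (0.20), DCP2 (0.73) and EXOSC3 (0.32) changed sign; length is what TPM divides by. With length-adjusted offsets the rho with length was 0.025 over all genes, small by construction. Over the members it was -0.23, which the offsets do not fix. For the other alternatives the cause was not tested.

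Scaling to ribosomal protein genes gave 21 higher and 12 lower at 0 h, and, against 0 h, 34 and 0 at NC 2 h, 45 and 1 at NC 4 h, 9 and 0 at NC 6 h, 14 lower at NC 8 h, 1 and 14 at KO 2 h, 27 and 0 at KO 4 h, 38 and 0 at KO 6 h, and 2 and 29 at KO 8 h. The molecule scale gave 30 higher and 6 lower at 0 h, 0 lower at NC 2 h, 3 lower at NC 4 h, 0 and 33 at NC 6 h, 47 lower at NC 8 h, 0 and 42 at KO 2 h, 5 and 27 at KO 4 h, 11 higher at KO 6 h, and 0 and 48 at KO 8 h. DESeq2 called 5 lower at NC 8 h and 10 at KO 2 h, and without the filter 5 were lower at KO 4 h and 12 at KO 6 h. The shares of all genes called under these alternatives are not given here.

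At 0 h, CNOT1 (0.27), XRN1 (0.39), DIS3 (0.19), CNOT8 (0.48), EDC3 (0.011), EDC4 (0.26), EXOSC4 (0.034) and DIS3L2 (0.31) changed sign on the molecule scale, and XRN1 (0.021) and CNOT8 (0.10) under ribosomal scaling. CNOT4, EXOSC4, EDC4, DIS3 and DIS3L2 kept their sign and lost their calls at 0 h under ribosomal scaling. That scaling also turned, in the NC label, LSM1 (0.17), UPF1 (0.13), PAN2 (0.14), PARN (0.23), XRN2 (0.30), LSM7 (0.078), PABPC1 (0.083) and HBS1L (0.12), and in the KO label DIS3 (0.15), SMG1 (0.17), UPF2 (0.11), CNOT7 (0.40), LSM1 (0.21), UPF1 (0.12), PAN2 (0.10), PARN (0.17), XRN2 (0.26) and DIS3L (0.30). The molecule scale turned LSM1 (0.075) and CNOT1 (-0.52) in the NC label and DCP2 (-0.30), EDC3 (-0.043) and LSM6 (-1.03) in the KO label.

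Leaving out each library in turn gave 9 to 15 members higher and 15 to 20 lower in the steady state, a rho of -0.43 to -0.40 over members and -0.23 to -0.21 over all genes, 10 to 11 higher and 21 to 27 lower at 0 h, and 30 to 34 past the threshold over times in the NC label and 41 to 45 in the KO label. Higher and lower counts were 13 to 17 and 5 to 9 at NC 2 h, 19 to 23 and 9 to 10 at NC 4 h, 0 to 3 and 0 to 2 at NC 6 h, 0 and 0 to 5 at NC 8 h, 1 to 3 and 1 to 6 at KO 2 h, 10 to 12 and 5 to 9 at KO 4 h, 15 to 17 and 15 to 21 at KO 6 h, and 5 to 8 and 8 to 14 at KO 8 h. The slope difference called 0 members each time. No named gene changed sign when a library was left out.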
